A study of Mus musculus with 20 samples.

Results

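A set of 10 genes that read lower in the forebrain of knock-in than of wild-type mice, and differed less that way in cerebellum on average over 2 ages, was followed over all 8 groups of a brain expression series. The exclusive sense of such a choice does not hold throughout. Ptpn4 also read lower in knock-in cerebellum at 11 weeks. So did Stard8, by less, at no more than 976 in knock-in and at least 1066 in wild-type cerebellum, though it read higher there at 4 weeks. Another 6 of the genes were too dim in cerebellum to show a lower level. The genes are Gpr83, Hrh3, Scube1, Csmd1, Tnnc1, Myl4, Ddit4l, Stard8, Ptpn4 and Ttc19. They are represented by 12 of the 22626 probe sets on the array that are not controls, with 2 each for Myl4 and Ddit4l and 1 for each of the others. A probe set was kept for testing when its intensity exceeded the 40th percentile of the array, here called the limit, on at least 2 arrays, and 11 of the 12 passed. Each gene is described by its leading probe set, the kept one with the highest mean, and 9105 genes had one. The genes were chosen because these same arrays showed a lower forebrain level and a difference between the regions. Their genotype differences in forebrain, in cerebellum and between the regions are therefore a description, given with standard errors and without a test.

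RNA came from forebrain and cerebellum of knock-in mice and of wild-type mice, with 3 arrays at 4 weeks and 2 arrays at 11 weeks for each genotype and region, 20 in all. The knocked-in allele, the strain and the sex are not stated in the labels, and the later age is written as 12 weeks in the titles. Nothing says that the arrays of a group come from separate mice, so errors and p-values cover only how far these arrays differ, which can be technical. For 7 of the 10 forebrain arrays, among them every knock-in one, the source field names cerebellum, and for knock-in forebrain replicate 3 at 4 weeks the description does so as well; arrays were grouped by the code in the title. The levels of region genes bear on this. Pcp2, of Purkinje cells, read 49.96 to 579 on the forebrain arrays and 38010 to 55244 on the cerebellar ones. Bcl11b, of deep-layer cortical and striatal neurons, read 3472 to 6182 in forebrain and 13.8 to 31.9 in cerebellum. The doubtful replicate 3 lay at 51.5 on the first principal component, within the 47.7 to 52.5 of all forebrain arrays, against -54.4 to -45.0 in cerebellum. The arrays had median intensities of 979 to 1180. In forebrain the median and the limit were higher on every knock-in array than on every wild-type array of its age. The limit was 728 to 758 in knock-in and 606 to 659 in wild-type forebrain at 4 weeks. At 11 weeks it was 697 and 706 in knock-in, against 612 and 680.1 in wild-type forebrain. A knock-in array thus had to read higher to exceed it. The actin 3'/5' ratio, which reflects how intact the RNA is, averaged 0.996 ± 0.088 on the knock-in forebrain arrays of 11 weeks, below the 1.12 ± 0.04 of their wild-type counterparts (SD, 2 arrays each), without overlap. Its part in the differences at that age was not tested.

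The 10 genes do not belong to 1 pathway. Gpr83 and Hrh3 encode G protein-coupled receptors, which pass a signal from outside the neuron to G proteins within it. Scube1 and Csmd1 encode proteins with CUB domains that act outside the cell or at its surface. Tnnc1 and Myl4 encode calcium-binding and myosin subunits best known from muscle, Ddit4l encodes a brake on the mTORC1 pathway, Stard8 a protein with a lipid-binding domain, and Ptpn4 a tyrosine phosphatase. Ttc19 encodes a mitochondrial protein needed for respiratory complex III.

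Since these genes read lower together, the stretch around their start sites was searched for 3 short motifs on both strands. RefSeq promoters (GRCm38.p6, 250 bases before to 50 after the start) were matched for 9 of the 10 genes, all but Csmd1. The core of the cyclic AMP response element (CRE), TGACG, was found in 3 of the 9 promoters, those of Gpr83, Ptpn4 and Ttc19, and in 20.8% of 32851 mouse promoters. The E-box CAGCTG occurred in 2 of 9, Gpr83 and Stard8, against 16.3% of all. TATAAA occurred in 2 of 9, Gpr83 and Ddit4l, against 13.6% of all. No motif was therefore common to the set. The 3 promoters with the CRE core are shown 5′ to 3′ along the gene. Capitals mark the matches to any of the motifs, those on the opposite strand included (the CRE core then reads CGTCA). In Ttc19, 2 of the matches overlap. They lie at chr9:14859960-14860259 on the + strand (Gpr83), chr1:119837022-119837321 on the - strand (Ptpn4) and chr11:62281223-62281522 on the + strand (Ttc19).
Gpr83: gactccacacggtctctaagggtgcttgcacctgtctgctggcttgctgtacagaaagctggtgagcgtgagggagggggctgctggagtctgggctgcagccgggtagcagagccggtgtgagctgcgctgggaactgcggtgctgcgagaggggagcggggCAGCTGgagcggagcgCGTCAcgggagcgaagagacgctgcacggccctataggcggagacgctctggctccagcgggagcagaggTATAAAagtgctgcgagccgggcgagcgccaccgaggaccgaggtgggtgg
Ptpn4: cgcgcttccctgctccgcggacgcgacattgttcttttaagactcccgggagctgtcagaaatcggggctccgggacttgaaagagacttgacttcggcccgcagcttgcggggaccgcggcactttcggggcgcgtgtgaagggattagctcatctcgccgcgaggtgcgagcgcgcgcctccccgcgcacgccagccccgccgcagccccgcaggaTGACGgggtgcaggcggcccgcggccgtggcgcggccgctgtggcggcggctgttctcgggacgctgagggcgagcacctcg
Ttc19: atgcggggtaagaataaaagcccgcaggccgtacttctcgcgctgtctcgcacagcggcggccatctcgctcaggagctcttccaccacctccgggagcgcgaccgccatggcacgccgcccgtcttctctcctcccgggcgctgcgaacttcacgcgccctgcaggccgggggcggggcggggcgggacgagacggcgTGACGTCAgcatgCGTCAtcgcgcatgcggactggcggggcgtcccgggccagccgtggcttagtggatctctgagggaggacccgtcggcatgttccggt
A match describes these letters only and names no bound factor.

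In forebrain, the highest knock-in array was dimmer than the lowest wild-type array for all 10 genes, at 4 weeks and at 11 weeks. Over all 15627 kept probe sets the share with that order was 11.5% at 4 weeks, 21.1% at 11 weeks and 6.29% at both ages. Because the genes were chosen from these contrasts, nothing is read from their count. The median log2 difference, knock-in minus wild type on the log2(intensity + 16) scale, was -1.40 at 4 weeks, -1.29 at 11 weeks and -1.44 for the mean over ages, against 0.04 at each for all probe sets. Without the doubtful knock-in replicate 3 the median was -1.49 at 4 weeks and -1.48 over ages. The fitted means over ages lay between -2.61 ± 0.29 for Gpr83 and -0.60 ± 0.15 for Ttc19 (± SE). For Gpr83, Scube1, Csmd1, Tnnc1 and Ptpn4, with 0 of 5 knock-in forebrain arrays above the limit, the fitted size, and so its rank, depends on the offset of 16. Bounds are therefore given beside the fitted values of these genes. In whole forebrain, fewer cells of a type and less RNA per cell cannot be told apart.

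**Figure D1:**
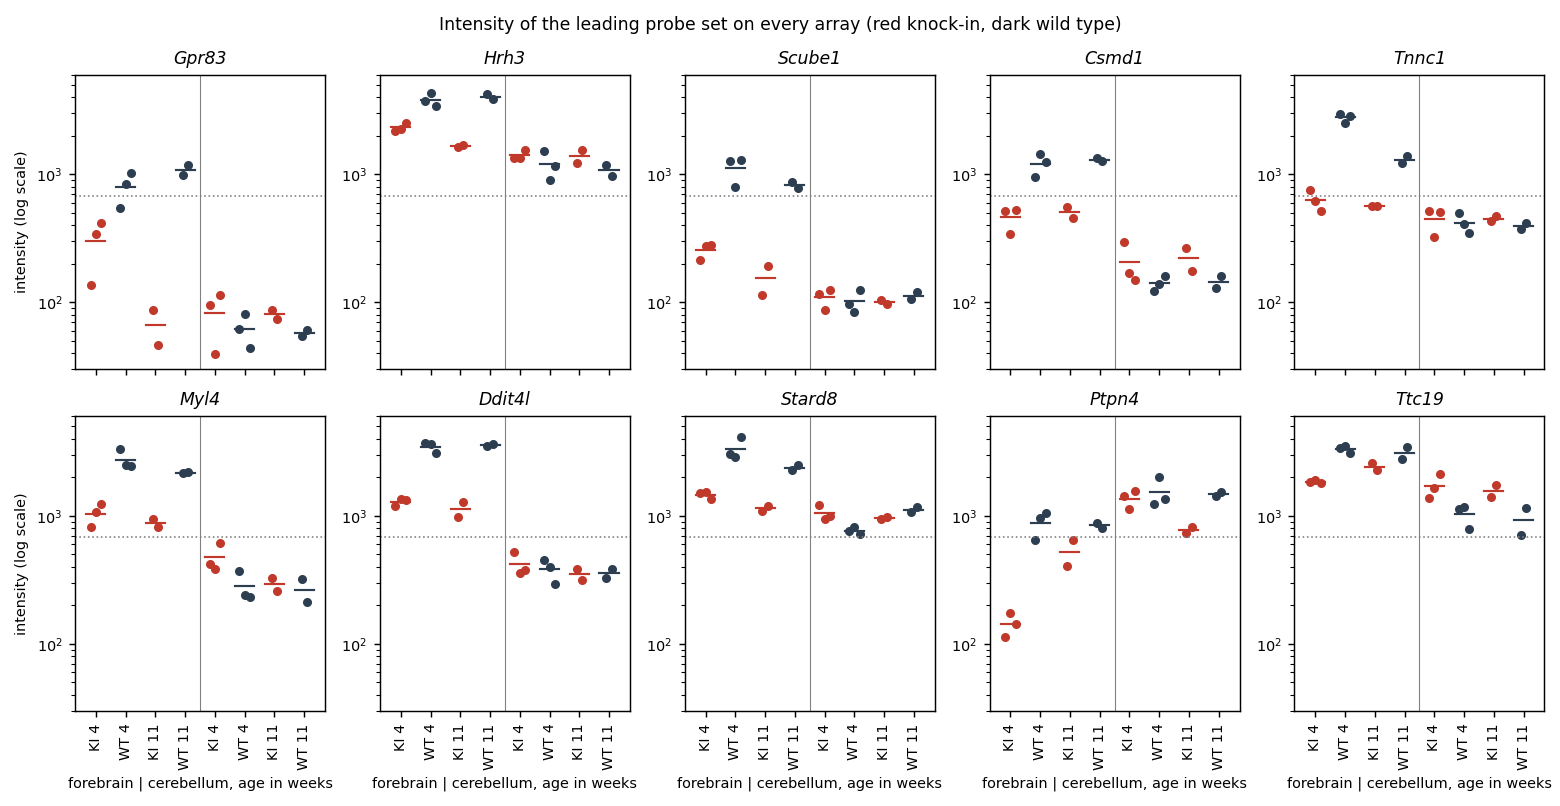
Intensity (log axis) of the leading probe set of each of the 10 genes on all 20 arrays, 1 point per array, with knock-in left of wild type at each age, forebrain left and cerebellum right. In forebrain all knock-in points lie below the wild-type points of their age, while in cerebellum the genotypes mostly overlap at 4 weeks.

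Among the receptors, Gpr83, a receptor to which the neuropeptide PEN has been reported to bind, read 137, 343 and 415 on the knock-in and 540.0, 838 and 1019.7 on the wild-type forebrain arrays at 4 weeks. At 11 weeks it read 87.3 and 46.5 in knock-in, against 982 and 1169.6 in wild-type forebrain. Its log2 difference was -1.46 ± 0.37 at 4 weeks and -3.76 ± 0.46 at 11 weeks. No knock-in forebrain array exceeded the limit and 4 of 5 wild-type arrays did, so the size depends on the offset of 16. With the knock-in arrays raised to the limit and the wild-type ones as measured, the level was at least 1.04-fold lower in knock-in forebrain at 4 weeks. At 11 weeks it was at least 1.53-fold lower. Wild-type replicate 1 at 4 weeks, at 540.0, was itself below its limit of 659, so the bound at that age is not firm. In cerebellum Gpr83 read 39.7 to 115 in knock-in and 43.5 to 80.1 in wild-type mice, below the limit throughout.

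Hrh3, the histamine H3 receptor, which restrains the release of histamine and other transmitters from nerve endings, stayed bright in both genotypes. At 4 weeks its forebrain intensity was 2174, 2260.4 and 2513 in knock-in, against 3712, 4296 and 3425 in wild-type mice. The values at 11 weeks were 1621 and 1680.1 in knock-in, against 4199.8 and 3869 in wild-type forebrain. These give log2 differences of -0.71 ± 0.16 at 4 weeks and -1.28 ± 0.20 at 11 weeks. In cerebellum Hrh3 was well measured, at 1228 to 1551 in knock-in and 893 to 1518 in wild-type mice, and the mean difference there was 0.31 ± 0.13, of opposite sign.

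Of the proteins at or outside the cell surface, Scube1, a secreted and membrane-tethered glycoprotein with EGF-like repeats, read 213, 273 and 279 in knock-in, against 1275, 796 and 1297 in wild-type forebrain at 4 weeks. It read 114 and 193 in knock-in, against 869 and 780.0 in wild-type forebrain at 11 weeks. All 5 knock-in arrays lay below the limit and all 5 wild-type arrays above it. The log2 difference was -2.05 ± 0.21 at 4 weeks and -2.35 ± 0.25 at 11 weeks, and the bound was at least 1.47-fold and 1.17-fold lower at these ages. Cerebellar levels were 86.4 to 124 in knock-in and 83.9 to 124 in wild-type mice, with a mean difference of -0.03 ± 0.16.

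Csmd1, a large membrane protein with CUB and Sushi domains that restrains complement, was dim in knock-in mice. Knock-in forebrain had 514, 342 and 526 and wild-type forebrain 947, 1426 and 1238 at 4 weeks. At 11 weeks the intensities were 557 and 453 in knock-in, against 1328 and 1259 in wild-type forebrain. The differences were -1.36 ± 0.24 log2 units at 4 weeks and -1.34 ± 0.29 at 11 weeks, with 0 of 5 knock-in and 5 of 5 wild-type arrays above the limit. The bounds were at least 1.59-fold lower at 4 weeks and 1.84-fold at 11 weeks. In cerebellum, below the limit throughout, it read 149.8 to 295 in knock-in and 122 to 160.4 in wild-type mice.

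Tnnc1, the troponin C of slow skeletal and heart muscle, which binds the calcium that starts contraction, read 747, 619.6 and 515 in knock-in, against 2966, 2519 and 2835 in wild-type forebrain at 4 weeks. At 11 weeks the values were 567 and 559 in knock-in, against 1214 and 1387 in wild-type forebrain. The knock-in level was thus below the limit at both ages, while the wild-type level stood above it on 5 of 5 arrays. Knock-in replicate 1 at 4 weeks, at 747, lay just under its limit of 748. The log2 difference was -2.13 ± 0.17 at 4 weeks, at least 3.72-fold lower, and -1.18 ± 0.21 at 11 weeks, at least 1.85-fold lower. Cerebellar arrays read 326 to 516 in knock-in and 350.1 to 498 in wild-type mice.

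Myl4, an essential myosin light chain of the atrium and of embryonic muscle, gave intensities of 811, 1076 and 1226 in knock-in, against 3306, 2475 and 2435 in wild-type forebrain at 4 weeks. The later arrays gave 946 and 810.4 in knock-in, against 2152 and 2193 in wild-type forebrain. Every forebrain array of both genotypes exceeded the limit. Knock-in minus wild type was -1.39 ± 0.22 log2 units at 4 weeks and -1.30 ± 0.27 at 11 weeks. The second Myl4 probe set, not kept because it exceeded the limit on 1 array only, went the other way at 4 weeks, with 546, 765 and 551 in knock-in, against 270.4, 368 and 378 in wild-type forebrain. Its values at 11 weeks overlapped, at 538 and 673 in knock-in, against 383 and 658 in wild-type forebrain, so the Myl4 result rests on 1 probe set. The leading probe set read 259 to 611 in knock-in and 211 to 372 in wild-type cerebellum, below the limit on every array.

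Ddit4l, also called REDD2, which restrains the growth kinase complex mTORC1, read 1188, 1363 and 1320.1 in knock-in, against 3701, 3626 and 3070.2 in wild-type forebrain at 4 weeks. At 11 weeks it read 978 and 1279 in knock-in, against 3485 and 3648 in wild-type forebrain. In log2 units the difference was -1.41 ± 0.17 at 4 weeks and -1.66 ± 0.21 at 11 weeks, with all forebrain arrays above the limit. Its second probe set had the same order. It read 663 to 902 in knock-in and 1184 to 1671 in wild-type forebrain at 4 weeks, and 561 and 584 against 1308 and 1249 at 11 weeks, for a mean log2 difference of -0.97 ± 0.39. The leading probe set read 315 to 519.9 in knock-in and 293 to 453 in wild-type cerebellum, below the limit throughout.

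Stard8, a protein with a lipid-binding START domain, had 1497, 1537 and 1361 in knock-in, against 3057, 2869 and 4113 in wild-type forebrain at 4 weeks. It had 1097 and 1192 in knock-in, against 2278 and 2485 in wild-type forebrain at 11 weeks. The log2 difference was -1.17 ± 0.13 at 4 weeks and -1.05 ± 0.16 at 11 weeks. In cerebellum, where all arrays exceeded the limit, the order turned between the ages. Stard8 read 938 to 1211 in knock-in and 722 to 816 in wild-type cerebellum at 4 weeks, but 951 and 976 in knock-in, against 1066 and 1165 in wild-type mice at 11 weeks.

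Ptpn4, a tyrosine phosphatase with FERM and PDZ domains that binds glutamate receptor subunits, read 114, 174 and 143 in knock-in, against 646, 955 and 1046 in wild-type forebrain at 4 weeks. At 11 weeks it read 402 and 643 in knock-in, against 871 and 809.8 in wild-type forebrain. The log2 difference was -2.48 ± 0.22 at 4 weeks and -0.71 ± 0.27 at 11 weeks, with 0 of 5 knock-in and 4 of 5 wild-type arrays above the limit, and bounds of at least 1.16-fold and 1.197-fold lower. Wild-type replicate 1 at 4 weeks, at 646, was itself below its limit of 659, so the bound at that age is not firm. Ptpn4 also read lower in knock-in cerebellum at the later age, so its difference was not limited to forebrain. Its cerebellar intensity was 735 and 820.2 in knock-in, against 1429 and 1529 in wild-type mice at 11 weeks, a log2 difference of -0.92 ± 0.27. At 4 weeks the cerebellar arrays overlapped, at 1124 to 1553 in knock-in and 1232 to 2023 in wild-type mice.

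Ttc19, a mitochondrial tetratricopeptide protein that keeps complex III working, read 1822, 1898 and 1812 in knock-in, against 3361, 3531 and 3113 in wild-type forebrain at 4 weeks. At 11 weeks the values were 2563 and 2281 in knock-in, against 2798 and 3419 in wild-type forebrain. Its log2 differences were -0.85 ± 0.19 at 4 weeks and -0.35 ± 0.23 at 11 weeks. In cerebellum the order was turned, with 1381, 1639 and 2120.5 in knock-in, against 1122, 1174 and 789.6 in wild-type mice at 4 weeks. It stayed so at 11 weeks, at 1413 and 1732 in knock-in, against 707 and 1148 in wild-type cerebellum, and the mean cerebellar difference was 0.76 ± 0.15.

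**Figure D2:**
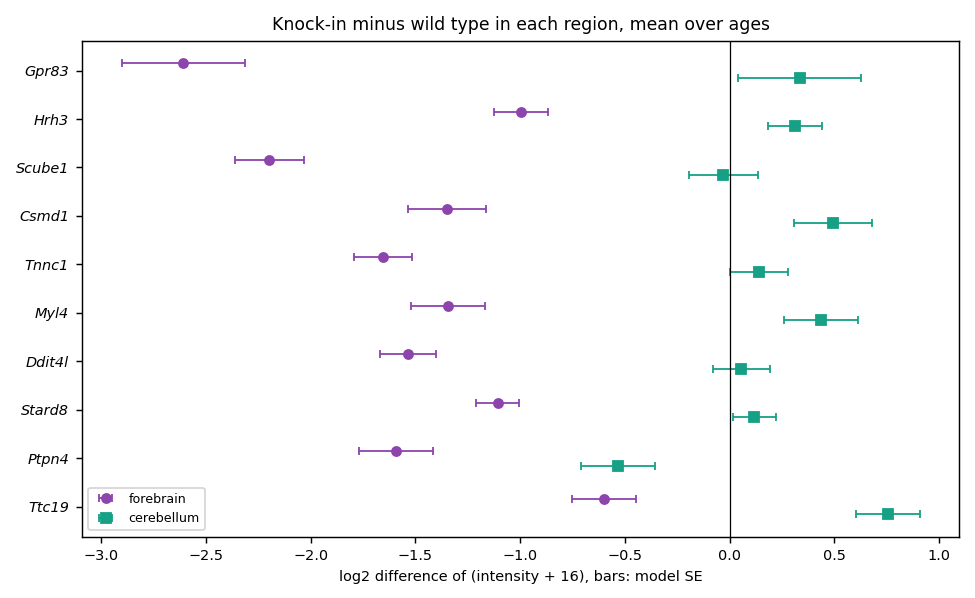
Log2 difference, knock-in minus wild type, of each gene averaged over the 2 ages, in forebrain and in cerebellum, with standard errors of the model as bars. Forebrain values run from -2.61 for Gpr83 to -0.60 for Ttc19, and cerebellar values from -0.53 for Ptpn4 to 0.76 for Ttc19, with the size for genes below the limit in 1 group set in part by the offset.

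The cerebellum divided the set. A gene was called readable there when its leading probe set exceeded the limit on all 5 wild-type cerebellar arrays. Hrh3, Stard8, Ptpn4 and Ttc19 were readable, and did so on all 5 knock-in cerebellar arrays as well. Gpr83, Scube1, Tnnc1, Myl4, Ddit4l and Csmd1 were near background, above the limit on 0 of 5 wild-type and 0 of 5 knock-in cerebellar arrays. For these 6, a lower level in knock-in cerebellum could hardly have been measured, so that whether they read lower in forebrain alone cannot be told. Only the 4 readable genes allow the regions to be set side by side.

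Among those 4, the cerebellar difference averaged over ages was 0.31 ± 0.13 for Hrh3, 0.12 ± 0.10 for Stard8, -0.53 ± 0.18 for Ptpn4 and 0.76 ± 0.15 for Ttc19. The forebrain difference minus the cerebellar one was -1.31 ± 0.18 for Hrh3, -1.22 ± 0.15 for Stard8, -1.06 ± 0.25 for Ptpn4 and -1.36 ± 0.21 for Ttc19. Over all 10 genes, 6 of them below the limit in cerebellum, the fitted median was -1.69 (-1.67 without the doubtful replicate 3), against 0.01 for all probe sets. Of all probe sets, 0.198% had a lower difference in forebrain than in cerebellum at a limma adjusted p under 0.05.

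At 4 weeks the cerebellar arrays of the genotypes overlapped for 7 of the 10 genes, and all knock-in arrays were brighter than all wild-type ones for Myl4, Stard8 and Ttc19. This order held for 11.2% of all probe sets. At 11 weeks, with 2 arrays against 2, the knock-in arrays lay above for 5 genes, Gpr83, Tnnc1, Hrh3, Csmd1 and Ttc19, and below for 3, Scube1, Stard8 and Ptpn4, against 26.9% and 22.4% of all probe sets. Of the genes named here, Myl4, Gpr83, Tnnc1, Csmd1 and Scube1 were below the limit on every cerebellar array, so their order ranks values near background. Ttc19 alone among the 10 kept the higher order in cerebellum at both ages.

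Wild-type mice alone show where the genes are expressed. The arrays of both wild-type regions entered the contrasts that chose the genes, and that choice favours a high wild-type forebrain level, so the regional values are a description with no test. Fitted over both ages, 9 of the 10 genes read higher in wild-type forebrain than in wild-type cerebellum. Ptpn4 was the exception, at -0.80 ± 0.18 log2 units, forebrain minus cerebellum.

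For the 6 genes near background in cerebellum the fitted differences depend on the offset, so bounds are given here. Wild-type forebrain exceeded wild-type cerebellum at least 5.47-fold for Ddit4l, 3.78-fold for Myl4 and 2.95-fold for Tnnc1. The bounds were at least 1.93-fold for Csmd1, 1.48-fold for Scube1 and 1.42-fold for Gpr83. For the readable genes the sizes stand as measured, 1.80 ± 0.13 log2 units for Hrh3, 1.59 ± 0.10 for Stard8 and 1.73 ± 0.15 for Ttc19.

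**Figure D3:**
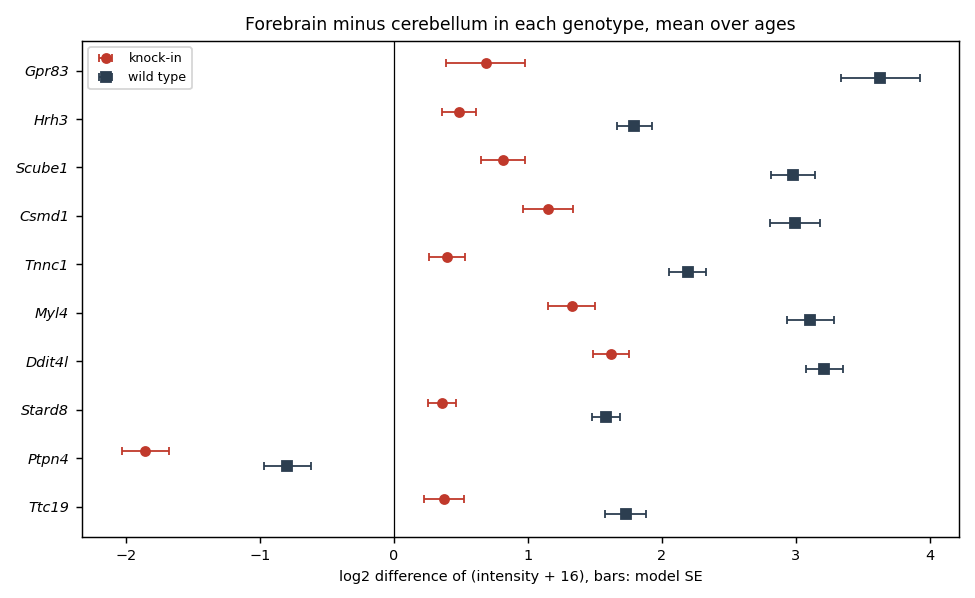
Log2 difference between forebrain and cerebellum, averaged over ages, for each gene, with knock-in and wild-type mice drawn apart and standard errors of the model as bars. In knock-in mice the value is lower than in wild-type mice for every gene, from 0.69 against 3.63 for Gpr83 to -1.85 against -0.80 for Ptpn4, and for the 6 genes near background in cerebellum the plotted sizes depend on the offset.

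In knock-in mice the forebrain excess of the readable genes was smaller, as the choice of the genes fixes. Forebrain minus cerebellum was 0.49 ± 0.13 log2 units in knock-in, against 1.80 ± 0.13 in wild-type mice, for Hrh3. It was 0.36 ± 0.10 in knock-in, against 1.59 ± 0.10 in wild-type mice, for Stard8. For Ttc19 the values were 0.37 ± 0.15 in knock-in, against 1.73 ± 0.15 in wild-type mice. Set against wild-type cerebellum, knock-in forebrain kept 65.3% of the wild-type excess for Ttc19 (on the log2 scale), 44.6% for Hrh3 and 30.2% for Stard8. No share is given for the 6 genes below the limit in wild-type cerebellum, where it would depend on the offset.

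Age was compared within each genotype. The forebrain arrays also entered the contrasts that chose the genes, and that choice favours low knock-in values. The p-values for age are therefore printed as a description. In knock-in forebrain Ptpn4 was the only one of the 10 that passed, higher at 11 than at 4 weeks by 1.73 ± 0.25 log2 units (limma adjusted p = 0.0161). It was higher on 2 of 2 arrays, all below the limit, so the size depends on the offset. Of all probe sets, 0.0192% were higher and 0.0448% lower with age there. The call was lost without knock-in forebrain replicate 2 at 11 weeks (1.41, limma adjusted p = 0.169), and held without the doubtful replicate 3 (1.74, limma adjusted p = 0.0269). Gpr83 had the largest difference the other way, -1.84 ± 0.42, which missed the threshold (limma adjusted p = 0.105). Without knock-in replicate 1 at 4 weeks, its lowest array of that group, it passed (-2.29, limma adjusted p = 0.0262). In knock-in forebrain 5 of the 10 and 1792 of all probe sets had an unadjusted p under 0.05 for age.

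In wild-type forebrain 0 of the 10 passed by limma, and 2 of the 10 and 961 of all probe sets had an unadjusted p under 0.05. The largest difference was that of Tnnc1, -1.08 ± 0.20 (limma adjusted p = 0.198), from 1214 and 1387 at 11 weeks, against 2519 to 2966 at 4 weeks. Of all 15627 probe sets 0% were higher and 0.0064% lower, which is 1 probe set. The genotype difference at 11 weeks minus that at 4 weeks passed by limma for 0 of the 10 and for 0 of all probe sets, and 4 of the 10 and 971 of all had an unadjusted p under 0.05. Those 4 were Gpr83 at -2.30 ± 0.59 (limma adjusted p = 0.565), Ptpn4 at 1.77 ± 0.35 (limma adjusted p = 0.443), Tnnc1 at 0.95 ± 0.28 (limma adjusted p = 0.593) and Hrh3 at -0.57 ± 0.26 (limma adjusted p = 0.786). They run in both directions, wider with age for Gpr83 and Hrh3 and narrower for Ptpn4 and Tnnc1, and none is shown to differ between the ages.

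**Figure D4:**
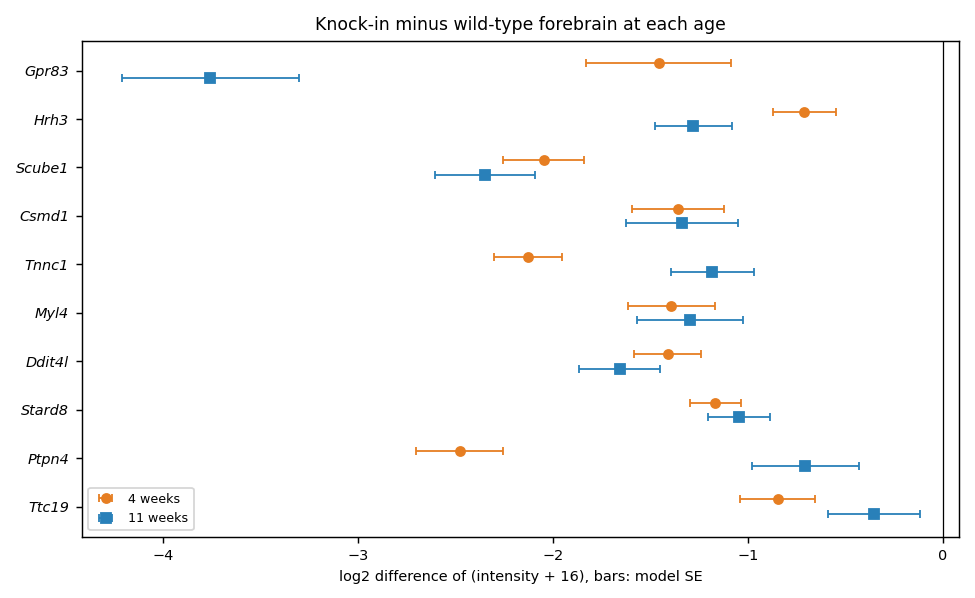
Log2 difference, knock-in minus wild-type forebrain, of each gene at 4 and at 11 weeks, with standard errors of the model as bars. Gpr83 stands at -1.46 and -3.76 and Ptpn4 at -2.48 and -0.71, on a scale where dim values depend on the offset.

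Over the 10 forebrain arrays the 45 pairs of genes correlated at a median Pearson's r of 0.85, from 0.45 to 0.96. These arrays share the genotype difference by which the genes were chosen. After each group's mean was taken out, the median was 0.0047, from -0.80 to 0.47, a figure that groups of 2 and 3 arrays leave imprecise. The mean of the 10 standardized log2 levels lay between -0.95 and -0.72 on the knock-in and between 0.69 and 0.99 on the wild-type arrays. Among 9095 other genes, the 5 that followed this mean most closely over the 10 arrays were Rasgrf2, Gabrd, Nbl1, Gabrb2 and Jdp2, with r from 0.972 to 0.988. Since that mean parts the arrays by genotype, such a ranking picks genes with a like genotype difference. It does not show that they vary with the 10 genes within a group.

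Rasgrf2, a Ras exchange factor of upper-layer cortical neurons, had 292 ± 15.9 in knock-in, against 1304 ± 109 in wild-type forebrain at 4 weeks (SD over 3 arrays), and at the later age 269 ± 2.11, against 1428 ± 66.5 (2 arrays). It exceeded the limit on 0 of 5 knock-in and 5 of 5 wild-type forebrain arrays, so the size of its difference depends on the offset. Gabrd, a GABA receptor subunit found outside synapses, averaged 2653 ± 440.2 in knock-in, against 6374 ± 394 in wild-type forebrain at 4 weeks. Its receptor family partner Gabrb2 averaged 3218 ± 79.1 in knock-in, against 4800.4 ± 328 in wild-type forebrain at that age. Nbl1, a secreted antagonist of bone morphogenetic proteins, and Jdp2, a repressor that pairs with Jun, completed the 5. Nbl1 averaged 884 ± 47.0 in knock-in, against 1644 ± 89.1 in wild-type forebrain at 4 weeks, and Jdp2 2521 ± 174 against 4221 ± 441.

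Other listed genes of the pathways were counted against all probe sets. Over all probe sets, averaged over ages, 8.36% were higher and 5.13% lower in knock-in forebrain, and the median was 0.04. Of the 16 listed relatives of Scube1 and of Hedgehog signalling, which SCUBE proteins help to release, 8 were measured, 3 rose and 0 fell, with a median of 0.49. Smo, the Hedgehog signal transducer, rose by 0.49 ± 0.11 (limma adjusted p = 0.0101), and Gli1, a target and effector of the pathway, read 606 ± 46.7 in knock-in, against 271 ± 73.2 in wild-type forebrain at 4 weeks. Gli1 rose by 1.01 ± 0.12 (limma adjusted p = 0.000226) but exceeded the limit on 0 of 10 forebrain arrays, so its size depends on the offset. The third, the co-receptor Boc, rose by 0.48 ± 0.15 (limma adjusted p = 0.0443) and lost the call under 13 of 19 other settings. Second probe sets read 0.25 for Smo (limma adjusted p = 0.256) and -0.16 for Boc, of opposite sign, and did not pass.

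Of 9 measured genes of the CUB and Sushi family and complement, 2 rose and 0 fell, with a median of 0.06. They were the complement inhibitors Serping1, by 0.55 ± 0.11 (limma adjusted p = 0.00532), and Cd59a, by 0.55 ± 0.11 (limma adjusted p = 0.00751). A second probe set of Cd59a, at 0.32 ± 0.18, did not pass (limma adjusted p = 0.231). Around Gpr83, 1 of 3 measured genes rose, Pcsk1n, the precursor of the peptide PEN. It averaged 42249 ± 6321 in knock-in, against 27491 ± 1546 in wild-type forebrain at 4 weeks and rose by 0.53 ± 0.14 (limma adjusted p = 0.0240), a call lost when single arrays were left out (limma adjusted p up to 0.0973). In the histamine system, 2 genes other than Hrh3 were measured and 0 changed by limma, the receptor Hrh1 at -0.13 and the histamine-degrading enzyme Hnmt at 0.44.

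Among 12 measured mTORC1 pathway genes 1 fell, the stress-induced inhibitor Sesn1 (-0.33 ± 0.10, limma adjusted p = 0.0427), lost under 13 of 19 settings. Other probe sets of Sesn1, at -0.16 and -0.21, did not pass (limma adjusted p = 0.490 and 0.249). Of 7 measured relatives and partners of Ptpn4, 1 fell, the NMDA receptor subunit Grin2a, by 0.57 on the log2 scale (SE 0.11, limma adjusted p = 0.00649), at 1015 ± 108 in knock-in, against 1431 ± 262 in wild-type forebrain at 4 weeks. Of 13 genes of complex III and its assembly, 1 fell, the Rieske subunit Uqcrfs1, whose fragments Ttc19 helps to clear (-0.27 ± 0.08, limma adjusted p = 0.0349), lost under 12 of 19 settings. Of the 18 listed relatives of troponin C and myosin light chains, 2 were measured and 0 changed by limma.

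Tnnc1 and Myl4 are muscle genes, so the level of muscle markers is given beside them. Summed over the 14 skeletal muscle markers on the array, intensity was 6369 to 6795 in knock-in and 6115 to 7685 in wild-type forebrain at 4 weeks, and 5494 to 6059 against 5758 to 6108 at 11 weeks. Over the 12 heart markers it was 9580 to 10394 in knock-in and 9916 to 10845 in wild-type forebrain at 4 weeks. At 11 weeks it was 9606 to 10704 against 11259 to 11575, without overlap. Of all probe sets, 21.1% had all knock-in arrays below all wild-type ones in forebrain at 11 weeks. Defining muscle genes, among them Myh4, Mylpf and Tnnc2 of skeletal muscle and Myh6, Tnni3, Myl2 and Myl7 of the heart, exceeded the limit on 0 of 20 arrays. Acta1, skeletal alpha actin, was above it on all forebrain arrays and fell by 0.67 on the log2 scale (SE 0.14, limma adjusted p = 0.00881), at 1037 ± 35.8 in knock-in, against 1717 ± 72.2 in wild-type forebrain at 4 weeks. Myh7, the slow and cardiac myosin heavy chain, also fell (-0.96 ± 0.26, limma adjusted p = 0.0278), while Ckm, muscle creatine kinase, rose (0.69 ± 0.19, limma adjusted p = 0.0258). The last 2 each lost the call under 8 settings.

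Markers of forebrain neurons moved in part with the set. Sums of marker intensities are given as a description, without a test. Among single probe sets, all knock-in arrays lay below all wild-type ones in forebrain for 11.5% at 4 weeks and 21.1% at 11 weeks. In cerebellum at 11 weeks this order held for 22.4%. Of 11 measured upper-layer cortical genes 2 fell, Rasgrf2 (below the limit on every knock-in forebrain array) and Wfs1, and 0 rose. Their summed level was 40591 to 42772 in knock-in and 45152 to 49769 in wild-type forebrain at 4 weeks, and 38914 to 40312 against 47920 to 48655 at 11 weeks, without overlap at either age. Of 11 measured deep-layer genes 2 fell, Pcp4 and Tle4, and 0 rose. The sum over the deep-layer list was 54508 to 59212 in knock-in and 69218 to 73040 in wild-type forebrain at 4 weeks, and 45691 to 53101 against 63932 to 64349 at 11 weeks. Such sums add raw intensities, so the brightest genes weigh most. A large part of this gap was Pcp4, which averaged 23968 in knock-in, against 31741 in wild-type forebrain at 4 weeks. At 11 weeks Pcp4 averaged 17457 against 26400. The deep-layer sum was lower in knock-in cerebellum too, at 44532 to 61523, against 65849 to 69911 in wild-type cerebellum. Of 13 interneuron genes 2 fell, Gad1, which makes GABA, by 0.62 on the log2 scale (SE 0.09, limma adjusted p = 0.00137), and the peptide gene Vip, which lost the call under 8 of 19 settings. The interneuron sum was 79756 to 86490 in knock-in and 90605 to 110493 in wild-type forebrain at 4 weeks, and 73291 to 83534 against 87981 to 96225 at 11 weeks, without overlap. The upper-layer and interneuron sums were larger in cerebellum than in forebrain, so these lists are not particular to forebrain. At 11 weeks the upper-layer sum was 70774 to 79077 in knock-in and 90137 to 91045 in wild-type cerebellum. The interneuron sum was 142552 to 151089 there, against 160065 to 161405. Both overlapped in cerebellum at 4 weeks. Second probe sets of Gad1, at -0.19, and of Tle4, at 0.10, did not pass. 
Summed levels of other neuron lists were lower too. The striatal sum was 34431 to 35967 in knock-in and 37933 to 44024 in wild-type forebrain at 4 weeks, without overlap. At 11 weeks it was 34594 to 34852 against 34907 to 40678, without overlap but with only a narrow gap. The hippocampal sum was 58802 to 61093 in knock-in and 67598 to 69743 in wild-type forebrain at 11 weeks, and overlapped at 4 weeks. The general forebrain sum was 60107 to 69632 in knock-in and 79747 to 80478 in wild-type forebrain at 11 weeks, and overlapped at 4 weeks. Astrocyte genes did the same, with 103445 to 106475 in knock-in, below the 126687 to 136677 of wild-type forebrain at 11 weeks. In cerebellum at 11 weeks the hippocampal sum was lower in knock-in too, at 69332 to 70623 against 71719 to 77848. The general forebrain sum was 5664 to 5784 there, against 6507 to 6705, with 2 of its 8 genes above the limit. Both overlapped in cerebellum at 4 weeks. The microglial sum was higher at 4 weeks alone, at 57049 to 63040 in knock-in and 49190 to 53433 in wild-type forebrain. The cerebellar sum was lower at 4 weeks, at 23525 to 24882 in knock-in and 25636 to 27562 in wild-type forebrain, and higher at 11 weeks, at 24444 to 24743 against 23428 to 24036. The sums of oligodendrocyte, thalamic and hypothalamic, choroid, and blood and vessel genes overlapped at both ages. The part of all these markers in the levels of the 10 genes was not tested.

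Single genes of these lists passed in both directions. Of 8 striatal genes 1 fell (Arpp21) and 1 rose (Rgs9), of 9 hippocampal genes 1 fell (Wfs1) and 1 was higher (Tdo2, above the limit on 0 of 10 forebrain arrays, so not above background in either genotype), and of 7 thalamic and hypothalamic genes 1 fell (Ramp3) and 2 rose (Oxt, Hcrt). Of 12 astrocyte genes 2 fell (Aqp4, Acsbg1), and of 10 blood and vessel genes 1 fell (Vwf). Sox10 rose among 11 oligodendrocyte genes, Laptm5 among 11 microglial genes and Foxj1 among 6 of choroid plexus and ependyma, with 0 falling in each. Vwf exceeded the limit on 0 of 5 knock-in forebrain arrays, and Foxj1 and Hcrt on 0 of 5 wild-type ones, so the sizes of their differences depend on the offset. Other probe sets of Laptm5 and Arpp21 had log2 differences of both signs. Of 10 cerebellar genes 2 rose in knock-in forebrain, Slc1a6 and the dim Cbln3. Wfs1, Oxt, Hcrt, Sox10 and Laptm5 passed under all settings run, and each of the others here lost the call under at least 1. Of 8 general forebrain genes 0 passed by limma for the mean over ages, though Camk2a, the kinase of excitatory synapses, read 4828 to 8321 in knock-in and 9218 to 14567 in wild-type forebrain.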

How the data were processed

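RNA of forebrain and cerebellum was hybridised to 20 1-colour arrays with Affymetrix probe set names. The authors deposited linear intensities; a 2% trimmed mean of 2501 on each array shows that the arrays were scaled alike. How probes were summarised and background corrected is not given in the sources used here. Detection calls were not used, and 0 columns lacked a sample. From these, log2(intensity + 16) was computed. Of 22690 probe sets, 64 of them controls, 15627 were kept above the 40th percentile on at least 2 arrays (median limit 681).

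The 8 group means were estimated jointly by limma version 3.58.1 (lmFit and eBayes; R 4.3.3), with files read by the package data.table, version 1.17.8, giving 12 residual and 3.45 prior degrees of freedom. The script was tested on simulated data. Every adjusted p is limma's, two-sided, by Benjamini-Hochberg over all kept probe sets, with a call under 0.05. The wild-type regional difference, planned as a test, is given without one, since the choice of genes bears on it. That choice bears on the age comparisons too, whose p-values are kept as a description. Ages were weighted equally. Errors of log2 differences are standard errors, and those of intensities SDs. Bounds raise the values of the dimmer group to the limit and take those of the brighter group as measured. They leave out the spread between arrays.

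The 10 genes, 24 gene lists and motifs were chosen with earlier results of these data known. The result of 1 list is not reported here. List counts leave the 10 genes out, and named from each list were at most 4 called genes by p; others named beside them (Hrh1, Hnmt, Camk2a) were chosen after their values were seen. Gene names are those of the platform annotation, in which 20380 probe sets have 1 symbol, 691 have several and 1555 have none. Alternatives changed the normalization, offset, filter, arrays fitted, replicate block and probe set choice, and left out each array. The number of arrays limits the precision.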

Additional observations from a re-analysis of the deposited data

Results flagged for a closer look

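Ttc19 moved in opposite directions in the 2 regions: at both ages the knock-in arrays were all dimmer than the wild-type ones in forebrain, and all brighter in cerebellum. The genotype difference in forebrain minus that in cerebellum was -1.36 ± 0.21 log2 units. The difference between the regions was not tested for this gene, since it was chosen from that contrast.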

How the results depend on the processing

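No forebrain genotype difference of the 10 leading probe sets turned its direction under the settings run. Small differences could turn when 1 array was left out, such as that of Scube1 in cerebellum, -0.03 over ages as reported. Other probe sets of Myl4, Boc, Tle4, Laptm5 and Arpp21 had the opposite sign to the leading ones. In knock-in forebrain the number of the 10 genes that passed for age was 1 as reported. It was 0 with no filter (Ptpn4, limma adjusted p = 0.0603), 0 with only the arrays compared (0.110) and 0 with the replicate number as a block (0.116), and 0 to 2 when each array was left out. In wild-type forebrain it was 0 as reported, 1 after cyclic loess (Tnnc1, -1.11, limma adjusted p = 0.0360), and 0 under every left-out array, as was the number whose genotype difference changed with age. The forebrain median at 4 weeks, -1.40, was -1.71 after cyclic loess and -1.49 to -1.29 with each array left out. That at 11 weeks was -1.33 to -1.19 and that over ages -1.48 to -1.42 with each array left out. The median regional difference, -1.69, was -1.36 under the stricter filter, which kept 7 of the genes, and -1.74 to -1.61 with each array left out. The cerebellar median over ages, 0.23, was 0.02 after cyclic loess, 0.09 after quantile normalization and 0.17 to 0.29 with each array left out. The wild-type regional difference kept its sign for all 10 genes, or the 7 left by the stricter filter, under every setting run. Same-numbered arrays of the genotypes deviated from their group means with r of -0.10 to 0.05. Those of the 2 regions within a genotype did so with r of -0.02 to 0.11. With 2 arrays per group the deviations mirror each other, so the r at 11 weeks says little. The values show no clear pairing by number, and the block changed no other call of the 10 genes. Counts over all probe sets moved more: 1151 were called in forebrain at 4 weeks, 394 to 1194 over all settings, and 135 at 11 weeks, 14 to 166. For the regional difference it was 44, against 6 to 64. A fit to only the arrays compared cannot be made for the regional difference, which uses all arrays. Genes below the limit in 1 group have sizes set by the offset, and with 2 arrays per group at 11 weeks small differences could not be measured.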
